A study of Homo sapiens with 14 samples.

Results

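The genes described here are neighbours on the long arm of human chromosome 1, in bands 1q23 to 1q24, running from PIGM to METTL13. The list held 55 genes and was chosen with the array values known, as a run to be read for how evenly it lay higher in PHA-533533-resistant sublines than in the parental line. Each gene was taken from the array row annotated to it alone, and where there were several rows from the row with the highest mean. Of the 55 genes, 49 were measured in this way, among 18398 named genes in all. F11R, TSTD1, POU2F1, MPZL1 and NME7 had no row naming them alone and were not analysed here, and HSD17B7 shared its row with the pseudogene HSD17B7P2 and was left out.

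The samples were RNA of OVCAR-3, a human ovarian carcinoma cell line, and of 5 sublines (R1, R3, R5, R6 and R7) derived from it independently as resistant to PHA-533533, an inhibitor of the cell cycle kinase CDK2. The 5 selected arrays held the sublines at passage 5, cultured in 4 µM PHA-533533. The 5 stable arrays held the same sublines at passage 10 or later, grown on in 0 µM. The 4 parental arrays held OVCAR-3 cells never labelled as exposed to the inhibitor, also at 0 µM. Inhibitor and passage change together between selected and stable cells and cannot be told apart. Whether the parental replicates came from separate cultures is not stated, so in comparisons with parental cells the parental spread may be technical alone. The tests of selected against stable cells and between sublines used no parental arrays.

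Neighbouring genes on a chromosome arm usually have unrelated functions and their own promoters. They share a DNA copy number, because a gained or lost segment carries all of its genes together, and gains of the chromosome 1 long arm are common in carcinomas. RNA arrays measure the product of gene dose and of each gene's own regulation. DNA copy number was not measured in these arrays, and its part in any value below was not tested.

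All levels are log2 signal from Affymetrix whole-transcript arrays, and a difference of 1 on this scale is a doubling of the signal. The median over all rows lay between 7.54 and 7.68 per array. The median gene had a mean signal of 8.04, and genes above it are called brighter genes. Of the 49 members 37 were brighter and 12 dimmer. All 8 listed ovarian carcinoma epithelial markers, among them EPCAM, PAX8 and MUC16, were among the brightest genes, at mean signals of 9.32 to 13.1. Of the fibroblast, leukocyte and endothelial markers only COL1A1 (9.08) was brighter than the median gene. Olfactory receptor genes, which these cells are not known to use, served as a measure of background and averaged 6.06 to 6.71 per array.

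The run lay higher in resistant than in parental cells for most of its genes, but not evenly. The mean of the resistant groups exceeded the parental mean for 42 members and fell below it for 7. The median difference over the 49 members was 0.18, against -0.01 over all named genes, of which 47.4% lay above 0. The differences ran from -0.07 for NIT1 to 0.72 for ATP1B1. They were within 0.1 of 0 for 18 members, between 0.1 and 0.3 for 19 and at least 0.3 for 12. For 15 members all 10 resistant arrays lay above the parental mean, for 24 at least 9 did, and for 7 no more than 5 did. Only ATP1B1, UHMK1, GORAB and VAMP4 had all 10 resistant arrays above all 4 parental arrays, and 0 members had all 10 below. Over all named genes 0.413% lay wholly above all 4 parental arrays in this way and 0.419% wholly below. Without parental replicate 2 the count of members wholly above was 8, and the share of all genes in that setting is not given here. These values chose the members, so they are given as a description without a test. RNA came from whole cultures, so a large difference in some cells and a small one in all cells cannot be told apart.

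**Figure D1:**
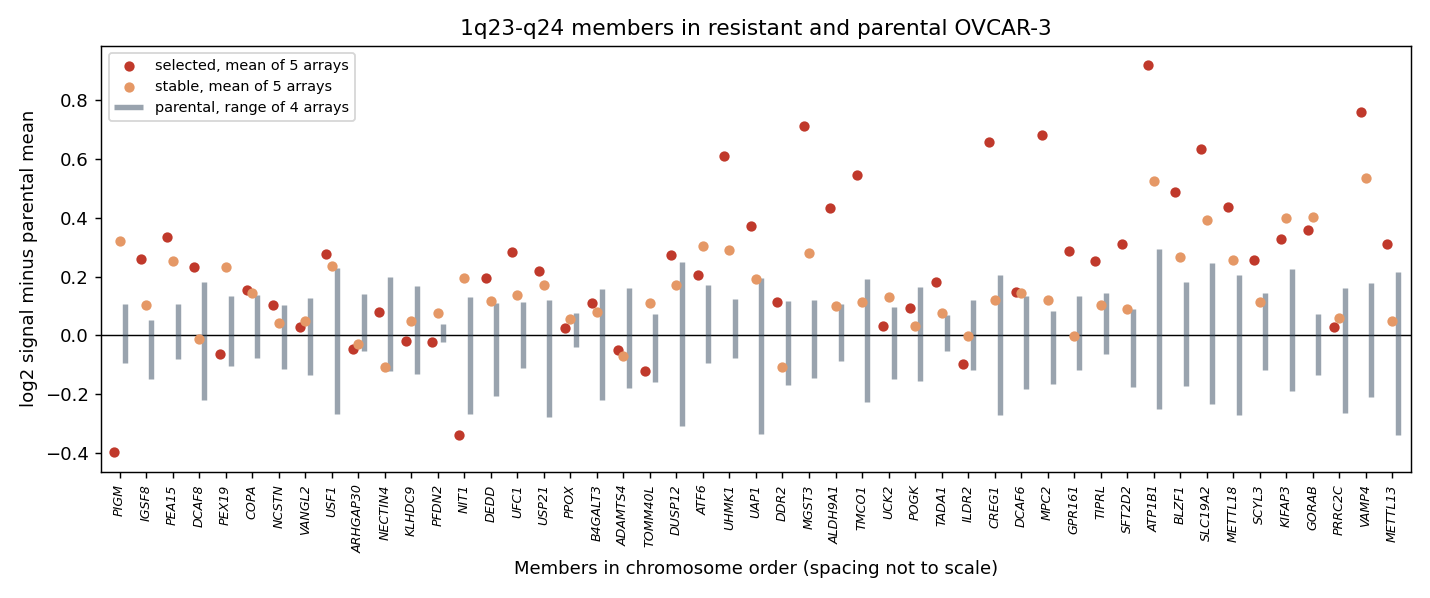
Log2 signal minus the parental mean (vertical axis) of the 49 members in chromosome order (horizontal axis), as the mean of the selected arrays, the mean of the stable arrays, and a bar for the range of the 4 parental arrays. Most points lie above 0, ATP1B1 (0.92 in selected, 0.52 in stable cells) reaches highest, and PIGM (-0.40 and 0.32) and NIT1 (-0.34 and 0.19) lie below 0 in selected and above 0 in stable cells.

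The values differed along the run. The first 17 members, PIGM to USP21, had a median difference of 0.08 (range -0.07 to 0.29), and 13 of them lay above 0. The next 16, PPOX to ILDR2, had a median of 0.11 (range -0.06 to 0.50), also with 13 above 0. The last 16, CREG1 to METTL13, had a median of 0.36 (range 0.04 to 0.72), and all 16 lay above 0. Signal strength moved with the values as well. The 37 brighter members had a median difference of 0.20 with 35 above 0, while the 12 dimmer members had a median of 0.01 with 7 above 0. Over all named genes the medians were 0.01 for brighter genes and -0.02 for dimmer genes.

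The promoters of ATP1B1, GORAB and VAMP4 are shown because the genes lay wholly above parental cells. UHMK1 did so too, but its window was left out because it lies inside the gene's own span. The windows shown differ in their promoter motifs, and none of the motifs marked occurs in every window. Each runs from 250 bases before the RefSeq transcript start to the base before it, in build GRCh38.p14, and capitals mark GC boxes (GGGCGG or CCGCCC) and CCAAT boxes (CCAAT or ATTGG). ATP1B1 lies at chr1:169106440-169106689 on the plus strand, GORAB at chr1:170531916-170532165 on the plus strand and VAMP4 at chr1:171742066-171742315 on the minus strand.
ATP1B1: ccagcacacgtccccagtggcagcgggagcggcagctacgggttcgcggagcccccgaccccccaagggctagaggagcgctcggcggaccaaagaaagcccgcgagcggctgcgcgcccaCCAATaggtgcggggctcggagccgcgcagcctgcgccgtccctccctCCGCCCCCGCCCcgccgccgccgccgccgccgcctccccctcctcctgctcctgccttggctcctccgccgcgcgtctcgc
GORAB: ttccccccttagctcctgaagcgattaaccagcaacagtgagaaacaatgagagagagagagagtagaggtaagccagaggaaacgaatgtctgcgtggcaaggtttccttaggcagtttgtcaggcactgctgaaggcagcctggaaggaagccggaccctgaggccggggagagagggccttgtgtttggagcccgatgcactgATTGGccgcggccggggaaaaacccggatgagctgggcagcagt
VAMP4: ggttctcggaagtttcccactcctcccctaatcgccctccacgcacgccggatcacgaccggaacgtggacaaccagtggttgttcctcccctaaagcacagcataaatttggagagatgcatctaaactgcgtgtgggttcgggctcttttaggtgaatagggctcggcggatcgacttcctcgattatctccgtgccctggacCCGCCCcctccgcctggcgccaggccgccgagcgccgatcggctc
The ATP1B1 window held 2 GC boxes and 1 CCAAT box at 77.6% GC, the GORAB window 1 CCAAT box at 57.2% GC, and the VAMP4 window 1 GC box at 60.8% GC. The GORAB window also lies within the antisense gene GORAB-AS1.

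ATP1B1 encodes the beta subunit of the sodium-potassium pump of the plasma membrane. Its signal was 9.69, 9.28, 9.52, 9.49 and 9.56 in selected R1, R3, R5, R6 and R7, and 9.18, 9.23, 9.003, 9.19 and 8.97 in stable R1, R3, R5, R6 and R7, against 8.48, 8.88, 8.34 and 8.65 in the parental arrays. Selected cells were highest, stable cells lay between, and the resistant arrays did not overlap the parental ones. The difference from parental cells was 0.72 (SE 0.10, n = 10 arrays of 5 sublines and 4 parental arrays), a 1.65-fold higher signal. It was 0.92 for selected and 0.52 for stable cells. The SE, here and for the other members, takes both arrays of a subline as independent.

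VAMP4 is a SNARE protein of the trans-Golgi network that takes part in vesicle fusion. Its signal was 9.03, 8.68, 8.33, 8.78 and 8.998 in selected R1 to R7 and 9.30, 8.44, 8.41, 8.24 and 8.29 in the stable arrays, against 8.06, 8.18, 7.98 and 7.79 in parental cells. Subline R1 stood apart from the other stable arrays, and the lowest resistant arrays came close to the highest parental one. The difference was 0.65 (SE 0.17), which splits by subline into 1.17 (R1), 0.56 (R3), 0.37 (R5), 0.50 (R6) and 0.65 (R7).

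UHMK1 encodes a kinase that phosphorylates p27, itself an inhibitor of CDK2. UHMK1 signal was 10.79, 10.75, 10.52, 10.59 and 10.80 in the selected arrays and 10.53, 10.31, 10.42, 10.29 and 10.30 in the stable arrays, against 10.05, 10.21, 10.06 and 10.00 in the parental arrays. Selected arrays were mostly above stable arrays, and both lay above parental cells, by 0.45 (SE 0.07). GORAB, a golgin-binding protein of the Golgi, had 8.17, 7.91, 7.88, 7.79 and 8.18 in the selected arrays and 8.11, 8.16, 7.94, 8.03 and 7.92 in the stable arrays, against 7.70, 7.67, 7.49 and 7.65 in parental cells. Its difference was 0.38 (SE 0.08), and unlike ATP1B1 its selected and stable arrays overlapped.

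**Figure D2:**
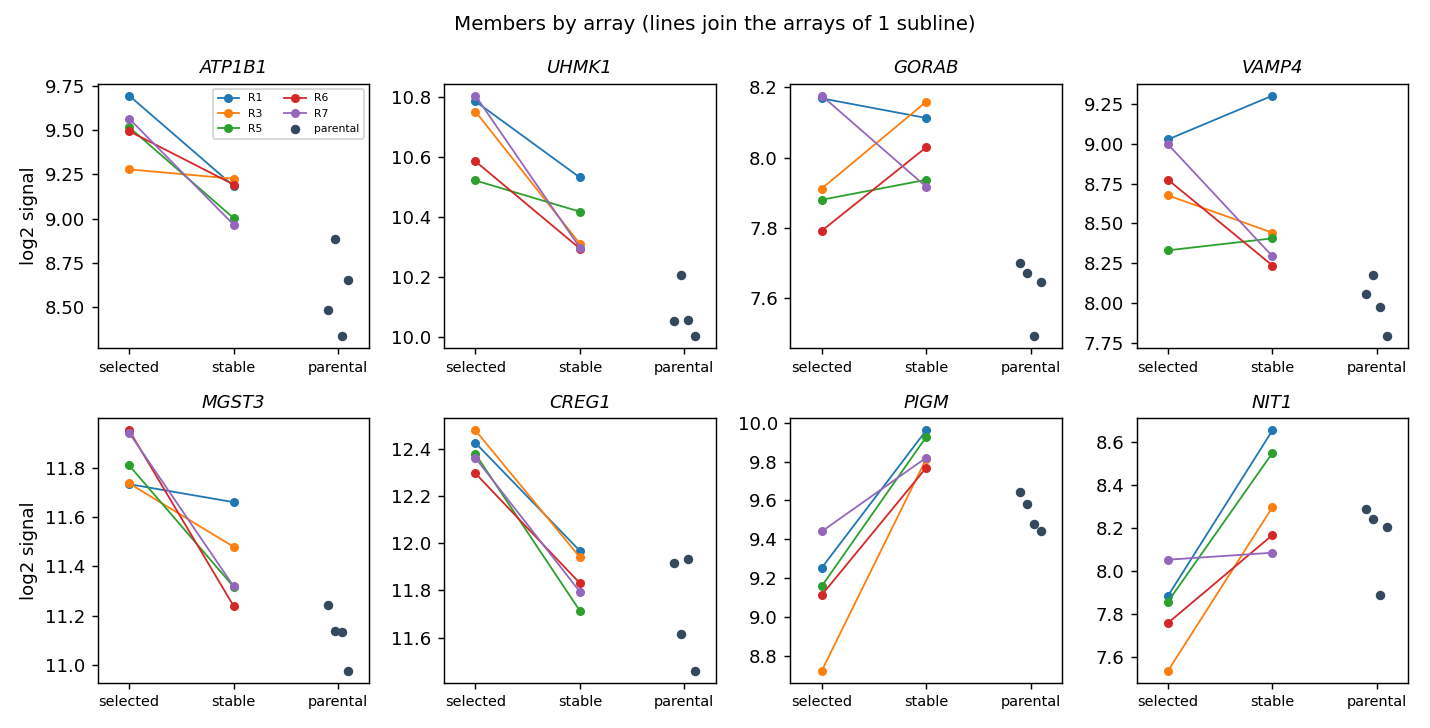
Log2 signal (vertical axis) of 8 members in each array by group (selected, stable, parental), with 1 point per array and lines joining the selected and stable arrays of a subline. In ATP1B1, UHMK1, GORAB and VAMP4 the 10 resistant arrays lie above the 4 parental arrays, in CREG1 only the selected arrays do, and in PIGM the stable arrays lie above the parental ones.

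By function, the 11 members of the secretory pathway had a median difference of 0.28, and 10 of them lay above 0. These include COPA (0.15), a subunit of the COPI coat, BLZF1 (0.38), a Golgi matrix protein, TMCO1 (0.33), a calcium channel of the endoplasmic reticulum, UAP1 (0.28), which makes the sugar nucleotide for glycan building, and CREG1 (0.39), a lysosomal glycoprotein. SFT2D2 (0.20), SCYL3 (0.18) and B4GALT3 (0.09), a galactosyltransferase, also lay below the group's median, as COPA did. PIGM (-0.04), a mannosyltransferase of the GPI anchor, was the member of this group below 0.

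The 10 members at the cell surface or in the matrix had a median of 0.06, and 7 lay above 0. SLC19A2, a thiamine transporter, followed ATP1B1 at 0.51 (SE 0.11). Its signal was 9.02, 8.66, 8.66, 8.82 and 8.92 in selected arrays and 8.94, 8.72, 8.48, 8.39 and 8.33 in stable arrays, against 8.16, 8.43, 7.95 and 8.18 in parental arrays, so stable R6 and R7 fell below the highest parental array. IGSF8 (0.18), GPR161 (0.14), a ciliary receptor, and NCSTN (0.07), a gamma-secretase subunit, were above 0. VANGL2 (0.04), DDR2 (0.00), NECTIN4 (-0.01), ILDR2 (-0.05) and ADAMTS4 (-0.06) were near 0.

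The 8 members of metabolism and organelles had a median of 0.08, with 6 above 0. MGST3, a microsomal glutathione transferase, had 11.73, 11.74, 11.81, 11.95 and 11.94 in selected arrays and 11.66, 11.48, 11.32, 11.24 and 11.32 in stable arrays, against 11.24, 11.14, 11.13 and 10.98 in parental arrays, a difference of 0.50 (SE 0.08). Its stable R6 array lay just below the highest parental array, and all other resistant arrays lay above it. MPC2, a subunit of the mitochondrial pyruvate carrier, differed by 0.40 and ALDH9A1, an aldehyde dehydrogenase, by 0.27. PEX19 (0.08), UCK2 (0.08), PPOX (0.04), TOMM40L (-0.00) and NIT1 (-0.07) were all within 0.1 of 0.

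Of the 7 signalling and motor members 6 lay above 0, with a median of 0.22. KIFAP3, a kinesin accessory protein, differed by 0.36, PEA15 by 0.29, the phosphatase DUSP12 by 0.22, TIPRL by 0.18 and DEDD by 0.16, while ARHGAP30 was at -0.04. The 5 members of protein folding and ubiquitin-like systems ranged from 0.03 for PFDN2, a prefoldin subunit, to 0.21 for UFC1, the conjugating enzyme of UFM1. USP21 (0.20), DCAF6 (0.14) and DCAF8 (0.11) lay between. The 7 nuclear and methyltransferase members were all above 0, from PRRC2C (0.04) to METTL18 (0.35), with USF1 (0.26), a transcription factor that binds E-boxes, and ATF6 (0.25), a sensor of endoplasmic reticulum stress, in between. METTL13 (0.18), TADA1 (0.13) and POGK (0.06) were lower. KLHDC9, which was placed in none of these groups, was at 0.01.

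**Figure D3:**
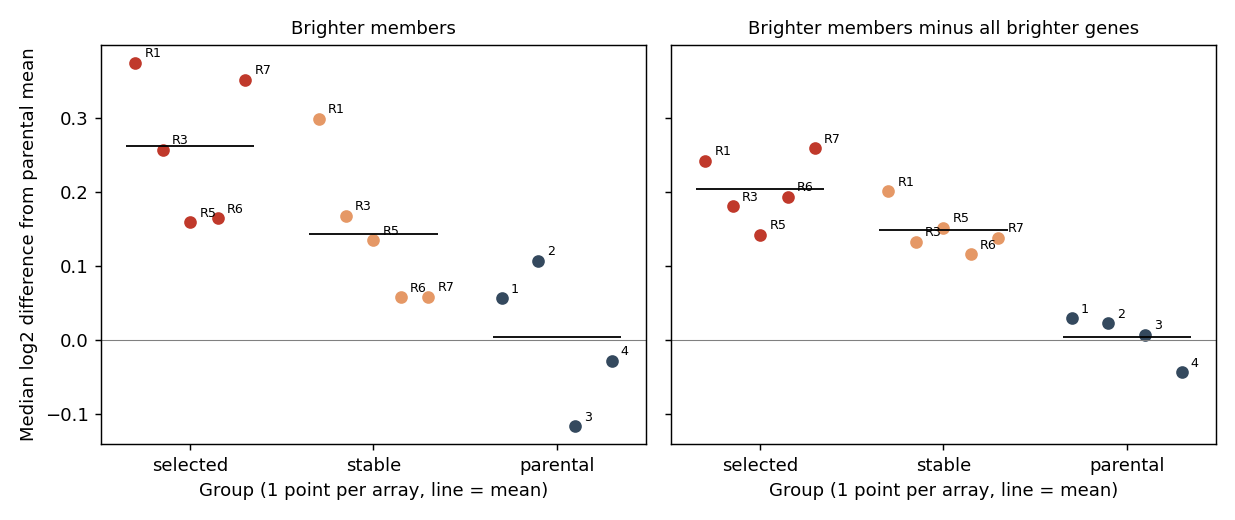
Median difference of the brighter members from their parental mean (left, log2) and the same minus the median of all brighter genes (right, log2), with 1 labelled point per array and a line at the mean of each group (selected, stable, parental). The left values overlap between stable and parental arrays, while the right values run from 0.116 to 0.259 in resistant and from -0.0441 to 0.0287 in parental arrays. The members were chosen on this contrast, so the separation is a description without a test.

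Seen array by array, the median difference of the members from the parental mean was 0.318, 0.213, 0.106, 0.143 and 0.309 in selected R1, R3, R5, R6 and R7. It was 0.251, 0.140, 0.114, 0.0572 and 0.0741 in stable R1, R3, R5, R6 and R7, and 0.0137, 0.0987, -0.105 and 0.00094 in the parental arrays. Stable R6 and R7 lay below parental replicate 2, so the groups overlap. Within each group the background level tended to be lower where these medians were higher. Olfactory receptor genes averaged 6.06 in selected R1 and 6.16 in parental replicate 2, and 6.69 in stable R7 and 6.71 in parental replicate 3. Taken as brighter members minus all brighter genes of the same array, a measure adopted after the values were seen, the run was 0.242, 0.180, 0.142, 0.193 and 0.259 in selected arrays and 0.201, 0.132, 0.151, 0.116 and 0.138 in stable arrays, against 0.0287, 0.0226, 0.00649 and -0.0441 in parental arrays. On that measure every resistant array lay above every parental one. The members were chosen on this same contrast, so their separation is a description without a test. The brighter genes farther out on the long arm were separated in the same way, at 0.0654 to 0.129 in resistant arrays against -0.0296 to 0.0326 in parental arrays.

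The other genes of chromosome 1 varied too. Between PIGM and METTL13 lay 63 named genes that are no members, with a median difference of 0.02, and 58 of them were dimmer than the median gene. Of the 5 brighter ones FIRRM (0.50, SE 0.11), a DNA repair protein, had every resistant array above every parental one, NUF2 (0.33), a kinetochore protein, was also higher, and SDHC (0.06), NOS1AP (0.01) and PCP4L1 (-0.02) were near 0. Nearest outside the ends were IGSF9 (0.39, SE 0.12) and SLAMF9 (-0.06) before PIGM, and DNM3 (-0.11, SE 0.19) and C1orf105 (0.03) after METTL13. The 20 genes before the run had a median of 0.02 and the 20 after it 0.03, while the brighter ones among them had medians of 0.22 (3 genes, all above 0) before and -0.12 (10 genes, 4 above 0) after. Among brighter genes, the 37 members had a median of 0.20, the 221 genes farther out on the long arm 0.12 (74.2% above 0), the 152 genes of the long arm before the run 0.04 (59.9% above 0) and the 557 genes of the short arm -0.01 (46.5% above 0).

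**Figure D4:**
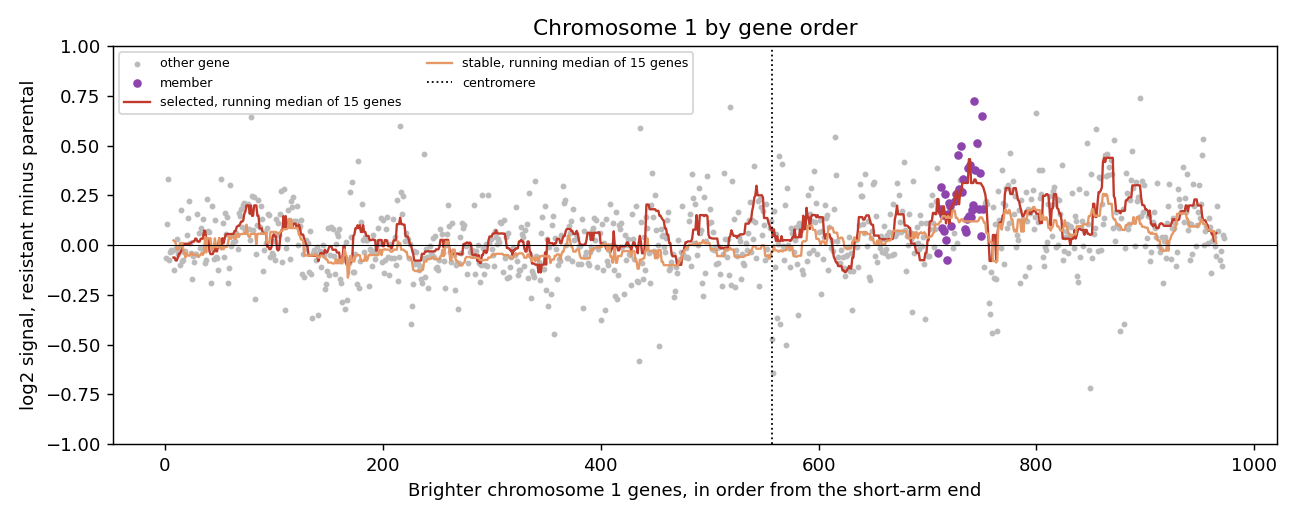
Resistant minus parental difference (log2 signal, vertical axis) of the brighter genes of chromosome 1 in order from the short-arm end (horizontal axis), with members marked and lines for the running median of 15 genes in selected and in stable cells. Over the members the selected line runs from 0.11 to 0.43 and the stable line from 0.10 to 0.17, but the selected line reaches 0.30 on the short arm and 0.44 beyond the run, and the stable line reaches 0.13 and 0.26 there.

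Whether the members differed between cells kept in the inhibitor and cells passaged on without it was tested in the selected and stable arrays, a contrast that did not choose them. In limma over all named genes 5 members were higher and 1 was lower in selected cells at an adjusted p under 0.05, that is 6 of 49 or 12.2%. Of all named genes 2.16% were called, 1.54% higher and 0.614% lower. Dim genes are among them, while most members are brighter. With only the 11039 genes above the 40th percentile of mean signal, 7 members and 3.92% of those genes were called. The members' median difference was 0.08 and 34 of the 49 (69.4%) lay above 0, against 50.9% of all named genes. Of the 37 brighter members 78.4% lay above 0, against 63.9% of all brighter genes. Among the genes with a mean signal of at least 9.26, the 24 members had a median of 0.08 and the 4576 other genes also 0.08. From 8.04 to 9.26 the 13 members had a median of 0.14 and the 4586 other genes 0.04. From 6.87 to 8.04 the medians were 0.08 for 8 members and -0.01 for other genes. Below that they were -0.05 for 4 members and -0.04 for other genes.

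CREG1 had the smallest adjusted p. Its signal was 12.42, 12.48, 12.38, 12.29 and 12.36 in selected R1 to R7 and 11.97, 11.94, 11.71, 11.83 and 11.79 in stable R1 to R7, with 11.91, 11.61, 11.93 and 11.46 in parental arrays. Selected arrays lay above all others, and stable arrays overlapped the parental ones. Selected cells were higher by 0.54 (SE 0.07, limma adjusted p = 0.0090). MGST3, given above, rose by 0.43 (SE 0.09, limma adjusted p = 0.0332), and ATP1B1 by 0.39 (SE 0.09, limma adjusted p = 0.0430).

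TMCO1 had 11.25, 11.27, 11.06, 11.07 and 11.26 in selected arrays and 10.85, 10.77, 10.86, 10.66 and 10.62 in stable arrays, with no overlap, and differed by 0.43 (SE 0.08, limma adjusted p = 0.0218). ALDH9A1 had 9.71, 9.62, 9.56, 9.60 and 9.74 in selected arrays and 9.46, 9.35, 9.35, 9.17 and 9.25 in stable arrays, a difference of 0.33 (SE 0.07, limma adjusted p = 0.0361). ALDH9A1, MGST3 and TMCO1 are adjacent members of the run.

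PIGM went the other way. It had 9.25, 8.72, 9.16, 9.11 and 9.44 in selected R1 to R7 and 9.96, 9.81, 9.93, 9.77 and 9.82 in stable R1 to R7, with 9.64, 9.58, 9.48 and 9.44 in parental arrays. Selected arrays were at or below parental cells and stable arrays above them, so the mean over both groups was close to parental cells while neither group was. The difference of selected from stable cells was -0.72 (SE 0.11, limma adjusted p = 0.0139). NIT1 (-0.53, adjusted p = 0.0516), UHMK1 (0.32, adjusted p = 0.0644) and MPC2 (0.56, adjusted p = 0.0796) did not pass in limma.

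With subline as a replicate block in limma 8 members passed, NIT1 (adjusted p = 0.0367) and MPC2 (adjusted p = 0.0373) being added, against 4.92% of all named genes. Olfactory receptor background was lower in the selected array of every subline, by 0.035 (R6) to 0.378 (R7), and was also put into the fit. As a covariate alone it left 6 members called in limma, ATP1B1 (0.35) not among them, against 2.88% of all named genes. With subline as a block as well, 0 members and 0 of all named genes were called in limma, with 7 members at an unadjusted p under 0.05. Without the arrays of R7 likewise 0 members and 0 of all genes were called, with 13 members at an unadjusted p under 0.05. CREG1 kept a difference of 0.53 there (adjusted p = 0.0733) and PIGM one of -0.81 (adjusted p = 0.0733), and over 24 alternatives the adjusted p ran from 0.00140 to 0.463 for CREG1 and from 0.00383 to 0.427 for PIGM. Leaving out single arrays gave 3 members without selected R1, R3 or R5 or stable R5 (0.467% to 1.24% of all genes). It gave 2 without selected R7 or stable R6 or R7 (0.527% to 0.826%) and 4 without selected R6 (1.35%). It gave 5 without stable R3 (1.84%) and 9 without stable R1 (5.23%). Leaving out a subline gave 7 members without R1 (2.92% of all genes), 2 without R3 (0.326%) and 1 without R5 (0.353%) or R6 (0.489%). The share of all genes called thus moved with the members' count.

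Between the 5 sublines 0 members passed the limma F test, against 0.12% of all named genes. At an unadjusted p under 0.05 there were 5 of 49 members (10.2%), against 15.8% of all genes. The smallest p-values belonged to SFT2D2 (adjusted p = 0.195), USF1 (adjusted p = 0.196) and ILDR2 (adjusted p = 0.238), which did not pass. By subline, the members' median difference from parental cells was 0.307 (R1), 0.181 (R3), 0.105 (R5), 0.083 (R6) and 0.177 (R7).

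The members were also set beside 80 measured genes of the same complexes or pathways, of which 74 lie on other chromosomes. Of the 80, 6 belong to the gamma-tubulin ring complex and are partners of NME7, which was not analysed. Against parental cells 0 of these partners rose and 1 fell in the limma test over all genes, where 0.397% of all genes rose and 0.337% fell. The gene that fell was TOMM22, a receptor of the mitochondrial import complex around TOMM40, whose paralogue is TOMM40L, on chromosome 22. It averaged 11.17 ± 0.17 in selected cells, 11.63 ± 0.15 in stable cells and 11.90 ± 0.15 in parental cells (SD, n = 5, 5 and 4), a difference of -0.50 (SE 0.09, limma adjusted p = 0.0209). Without any 1 of the 4 parental replicates it did not pass, at an adjusted p of up to 0.101, and over 22 alternatives the adjusted p ran from 0.00255. The partners' median difference was 0.08 and 53 of 80 lay above 0. MPC1, the other subunit of the pyruvate carrier, differed by 0.37 (SE 0.10, limma adjusted p = 0.0791) and ATP1B3, another pump beta subunit, by 0.38 (adjusted p = 0.0773), so neither passed. Between selected and stable cells MPC1 differed by 0.69 (limma adjusted p = 0.0146) and TOMM22 by -0.46 (limma adjusted p = 0.0353). In that contrast 2.16% of all named genes were called. Against parental cells 7 partners passed with quantile normalization, and 10 with olfactory receptor background as a covariate. The direction of these calls and the share of all genes called under the same settings are not given here. The counts can therefore not be read as particular to the partners. The 7 COPI coat genes lay between 0.04 and 0.27 and the 5 prefoldin genes between -0.21 and 0.09. Of 11 known ATF6 target genes 7 lay above 0 and 0 passed in limma, and USF2, the partner of USF1, was at -0.10 (adjusted p = 0.758).

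Some neighbours start close together on opposite strands. COPA and NCSTN start 133 bases apart and differed from parental cells by 0.15 and 0.07. The stretch between their starts, chr1:160343251-160343382 on the plus strand of GRCh38.p14, is shown because it lies before both starts, and capitals mark its 2 ETS motifs (CCGGAAG or CTTCCGG).
COPA-NCSTN: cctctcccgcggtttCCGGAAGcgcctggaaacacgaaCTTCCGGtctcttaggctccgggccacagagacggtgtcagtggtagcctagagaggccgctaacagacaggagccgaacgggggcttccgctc
MPC2 and DCAF6 start 687 bases apart and differed by 0.40 and 0.14 from parental cells and by 0.56 and 0.00 between selected and stable cells. Over the 45 members with a RefSeq promoter, GC boxes were in 68.9% of the windows (56% of 15843 promoters of protein-coding genes), CCAAT boxes in 40% (34.5%), ETS motifs in 11.1% (11.8%), the E-box CACGTG that USF1 binds in 6.67% (7.84%) and TATAAA or its complement in 4.44% (9.23%), counting both strands and overlapping matches. These shares are descriptions of the windows.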

How the data were processed

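The deposited values are log2 signal per array row, and per the labels' protocols total RNA was labelled with biotin and hybridised to Affymetrix whole-transcript arrays. The scale is not stated, and the range of 4.34 to 14.9 led to reading it as base 2. How background, normalization and summarisation were handled is not given in the sources used here.

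The table has 32295 rows, of which 19148 name 1 gene, 1376 several and 11771 none. Symbols were updated through a RefSeq table (GRCh38.p14), where 19118 of those rows found their gene, and 18398 distinct genes remained, 633 of them with more than 1 row, where that of highest mean was taken. Genes were ordered along chromosome 1 by that table. Differences were fitted with limma 3.58.1 under R 4.3.3 (eBayes after lmFit, two-sided, Benjamini-Hochberg over all genes, threshold 0.05), which was tested on simulated data. Resistant against parental cells used 14 arrays as 3 groups, and the mean of selected and stable cells minus parental cells is given. That fit had no subline term, so both arrays of a subline counted as independent in its SEs and p-values. With subline as a random block, an alternative, the estimated correlation between arrays of a subline was 0.213. Selected against stable cells, and the F test between sublines with growth condition as covariate, used 10 arrays. Python 3.11.15 with pandas 2.3.3, numpy 2.4.6 and matplotlib 3.10.9 made the counts and figures. Arrays have no read depth, and their number limits the precision.

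The members, the partner and marker lists and the grouping by function were chosen with earlier results of these data known. Named are all members, the nearest genes outside each end, the brighter genes inside the run, partners that passed, and for tested contrasts each member that passed and the 3 with the smallest p; MPC1, ATP1B3 and USF2 were named after their values were seen. Same-numbered selected and stable arrays are the same subline by the labels, so subline pairs them. Deviations of a subline's arrays from their group means correlated across genes at 0.636 (R1), 0.0497 (R3), 0.371 (R5), 0.546 (R6) and -0.468 (R7). Alternatives were quantile normalization, median centring, averaging all rows of each gene, a filter at the 40th percentile, trended and robust variance, array weights, olfactory receptor background as a covariate, leaving out arrays or sublines, and the replicate block.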

Additional observations from a re-analysis of the deposited data

Results flagged for a closer look

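Among 153 sets of values in 1 group, 147 of members and 6 of TOMM22 and the members' median, 7 member sets had a single array far from the rest of its group, where chance alone gives about 1 in 20. Stable R1 was the high array for VAMP4 at 9.30 (the other stable arrays 8.24 to 8.44), MPC2 at 9.59 (8.83 to 8.96) and SCYL3 at 8.64 (8.32 to 8.36). Parental replicate 3 was low for IGSF8 at 9.16 (9.35 to 9.36) and high for ARHGAP30 at 7.33 (7.13 to 7.15). Selected R6 was low for UFC1 at 12.0 (12.22 to 12.30), and stable R3 was low for NECTIN4 at 7.19 (7.42 to 7.50).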

How the results depend on the processing

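The members' median difference from parental cells stayed between 0.12 and 0.20 over 24 alternatives and the count above 0 between 39 and 45. Members with every resistant array above every parental one numbered 4 to 8 when arrays were left out in turn, the 8 coming without parental replicate 2. Leaving out an array loosens this criterion for every gene. The share of all genes that met it in those settings is not given here, so the rise cannot be read as particular to the members. The count of 6 members passing between selected and stable cells became 3 with median centring (1.59% of all genes called), 10 with array weights (8.04%), 8 with the replicate block, subline being the pairing (4.92%), and 0 with the block and olfactory receptor background together. It lay between 0 and 9 when arrays or sublines were left out, with the share of all genes called in brackets. It was 3 without selected R1, R3 or R5 or stable R5 (0.467% to 1.24%) and 2 without selected R7 or stable R6 or R7 (0.527% to 0.826%). It was 9 without stable R1 (5.23%). Without both arrays of a subline it was 7 for R1 (2.92%), 2 for R3 (0.326%), 1 for R5 (0.353%), 1 for R6 (0.489%) and 0 for R7 (0%). Of 24 alternatives PIGM kept its call in 20, CREG1 in 22, TMCO1 in 15, MGST3 in 10, ALDH9A1 in 8 and ATP1B1 in 7. The blocked fit is the fit with pairing, and it lost none of the 6 calls. Between sublines array weights gave 3 members (6.12%, against 7.55% of all genes) and every other alternative 0. The count of 1 partner passing became 7 with quantile normalization, 8 with array weights and 10 with olfactory receptor background as a covariate. It lay between 0 and 2 when arrays were left out: 0 without any 1 of the 4 parental replicates, 2 without selected R6 or without stable R5. The shares of all genes called under these settings are not given here. TOMM22 kept its call in 18 of 22. The causes were not tested. Members near 0 changed sign under some alternatives, TOMM40L in 11 and DDR2 in 10 of 24. Dim genes limit the reading of 12 members.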
